A study of Oryctolagus cuniculus with 34 samples.

Results

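Integrins are transmembrane receptors, each made of an alpha and a beta subunit, that tie the matrix outside a cell, or a neighbouring cell, to the actin cytoskeleton inside it. In skeletal muscle they anchor fibres to the laminin-rich basement membrane and carry force between the contractile apparatus and the matrix. Leukocyte integrins are those of white blood cells, and among the collagen-binding subunits ITGA11 is the one typical of fibroblasts. The genes described here are 15 of the 12937 genes tested, out of 23669 in the count table. They were chosen by symbol (ITGA or ITGB at its start, without ITGAM and ITGB1BP1) and by a library-size-scaled read count (CPM) above 1 in at least 1 library. By role they are the collagen-binding ITGA1, ITGA2, ITGA10 and ITGA11, the laminin-binding ITGA3, ITGA6 and ITGB4, the leukocyte integrins ITGA4, ITGAL, ITGB2 and ITGB7, the platelet subunit ITGA2B, the common beta subunit ITGB1, and ITGB8, whose heterodimer activates latent TGF-beta. ITGBL1 also matches the pattern, although it codes for a secreted protein related to beta subunits and is no receptor subunit itself.

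Symbols came from shortened tables, so the set is not the whole family. For 8 of the members (ITGBL1, ITGA3, ITGA1, ITGA2, ITGB2, ITGAL, ITGB4 and ITGA11) the symbol was at hand only because the gene had been placed in a co-expression module that the study built on its repair libraries. Subunits without a symbol here, such as ITGA5, ITGA7 or ITGAV, were not analysed.

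Supraspinatus muscle of New Zealand White rabbits (female, about 6 months old) was sequenced as bulk RNA, from the posterior lateral region of the muscle. In each rabbit the tendon of the left shoulder was cut (tenotomy), left for 8 weeks and then repaired, and the muscle was taken at 1 of 4 times post-repair (1, 2, 4 and 8 weeks). The right shoulder was the control: unoperated by the study's methods, but a sham in which the skin was cut by the labels. Of the 33 libraries, 4 repair and 4 control libraries are of 1 week, 5 and 5 of 2 weeks, 4 and 4 of 4 weeks, and 3 repair with 4 control libraries of 8 weeks. No group with tenotomy alone was analysed here, so every value sets tenotomy plus repair against the other shoulder of animals that had both. The libraries of 1 and 8 weeks carry one series of titles and those of 2 and 4 weeks another, and the first is deeper (median total count 19343431 against 10625163). Title series and time cannot be told apart. One more repair library, of rabbit 3 at 8 weeks, was left out of all fits but the alternative with all 34 libraries. The study's methods also removed an experimental sample of 8 weeks, at read quality control. In the left-out library ITGB1 was at 5.37 CPM, against 164 to 222 CPM in the controls of that time before TMM scaling. The repair library of rabbit 59 at 2 weeks stood apart from its group, and without it the genes called at 2 weeks numbered 328 of 12514 in place of 2053 of 12937. The labelled tissue was borne out by its markers, with 8 muscle fibre genes (such as DES and ATP2A1) summing to between 10910 and 94190 CPM in every library.

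Differences are log2 fold changes (log2FC) of repair over control with their standard error (SE), from limma-voom on all 12937 genes, and a gene is called at an adjusted p under 0.05 over all of them. In bulk tissue, fewer cells of a type and less RNA per cell cannot be told apart. Lengths were not at hand, so levels are compared between groups for one gene and never between genes. All CPM values below are scaled by TMM, a factor that evens out library composition. They are listed in the order of the rabbits of each time, which are 5, 6, 7 and 8 (1 week), 59, 60, 61, 62 and 64 (2 weeks), 63, 66, 67 and 68 (4 weeks) and 1, 2, 3 and 4 (8 weeks). Rabbit 3 has a control value alone.

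The repaired muscle held more RNA, as CPM, for the laminin-binding integrins and for ITGBL1 and ITGA2, and less for ITGA2B, when the effect was averaged over the 4 times. At 8 weeks alone the log2FC of the laminin-binding ITGA6, ITGB4 and ITGA3 was 0.06, -0.19 and -0.16, none of them called. For the mean effect 6 members rose (ITGA6, ITGB4, ITGBL1, ITGA2, ITGA3 and ITGB7) and 1 fell (ITGA2B), 7 of 15 or 46.7%. Of all genes tested 40.1% were called for the mean effect, 22.4% higher and 17.7% lower, so the share of members called was near the background. At 1 week 2 members were called (ITGBL1 higher, ITGA2B lower; 13.3%, against 13.7% of all genes, 6.81% higher and 6.88% lower) and at 2 weeks 3 (ITGB4, ITGA6 and ITGBL1, all higher; 20%, against 15.9% of all genes called and 7.95% called higher). At 4 and at 8 weeks limma-voom called 0 members, against 0.124% and 0.00773% of all genes, and edgeR and DESeq2 also called 0. At an unadjusted p under 0.05 there were 3 members at 4 weeks (ITGA6, ITGA1 and ITGB4; 15.9% of all genes) and 0 at 8 weeks (3.07%). The median log2FC of the members over the successive times was 0.61, 0.94, 0.69 and 0.01, beside 0.05, 0.06, 0.05 and 0.01 over all genes. The differences of the effect between 1 and 8 weeks and between 2 and 4 weeks called 0 members in limma-voom, edgeR and DESeq2, and limma-voom called 0% of all genes. At an unadjusted p under 0.05 the members numbered 0 in both, beside 5.28% (1 and 8 weeks) and 2.77% (2 and 4 weeks) of all genes. The difference between 2 and 8 weeks, which crosses the title series, also called 0 members and 0% of all genes in limma-voom. Its fitted value (8 minus 2 weeks) was -2.36 for ITGB4 (unadjusted p = 0.00381), -0.87 for ITGA6 (unadjusted p = 0.025) and -0.98 for ITGA3 (unadjusted p = 0.0259), each with an adjusted p of 0.558, and 8.94% of all genes passed the unadjusted threshold.

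**Figure D1:**
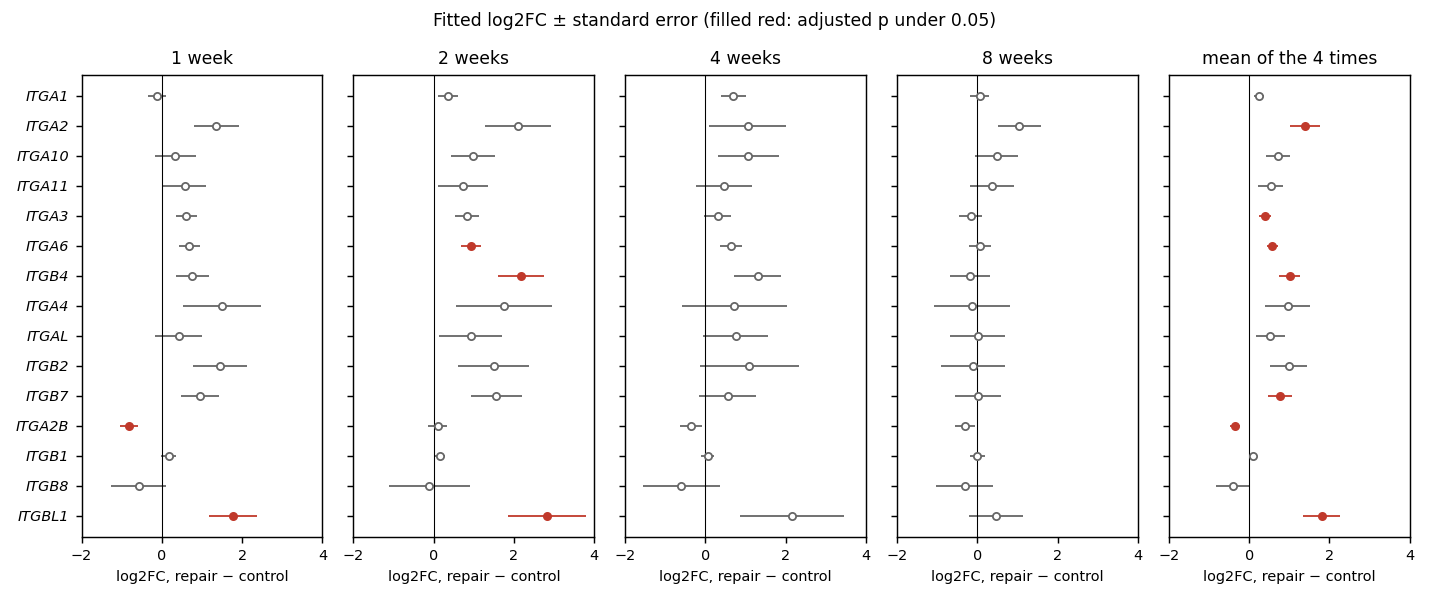
Fitted log2FC of repair over control (x axis, log2 units) for the 15 members (y axis) at each time and for the mean of the 4 times, with bars of 1 SE and filled red points where the adjusted p was under 0.05. Red points number 2, 3, 0 and 0 over the successive times and 7 for the mean.

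With the rabbit as a block, which uses the pairing of both shoulders of 1 animal, the counts were 5 members at 1 week (26.3% of all genes called), 8 at 2 weeks (31.6%), 0 at 4 weeks (2.81%), 0 at 8 weeks (0.00773%) and 10 for the mean effect (46.4%). The additional calls at 1 week were ITGA2, ITGA6 and ITGB2, and at 2 weeks ITGA2, ITGA3, ITGA4, ITGB2 and ITGB7. For the mean effect they were ITGA4, ITGA11 and ITGB2. All of them were higher after repair. With an estimated correlation between the shoulders of a rabbit in place of the block, the counts were 3 at 1 week (22.4% of all genes), 5 at 2 weeks (25.2%) and 8 for the mean effect (46.1%). Of the additional calls ITGA6 at 1 week (adjusted p = 0.0352) and ITGA2 and ITGA3 at 2 weeks (adjusted p = 0.0435 and 0.0344 with that correlation) also passed there, and the others did not. With the block and without both libraries of rabbit 59, 4 members were called at 2 weeks (ITGA2, ITGA6, ITGB4 and ITGBL1; 7.74% of all genes) and 6 for the mean effect (ITGA2, ITGA6, ITGB4, ITGB2, ITGBL1 and, lower, ITGA2B; 45.5%). The same fit called 9 members at 1 week (37.4% of all genes). Rabbit 59 is of 2 weeks, but all groups share 1 estimate of the spread in these fits.

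Of the 16 rabbits with both shoulders in the fit, ITGA6, ITGA2 and ITGBL1 were each higher on the repaired side in 15, a count reached by 6.79% of all genes, and ITGB4 in 14, reached by 13%. The map of rabbits shows these rows as nearly uniform in direction. Their depth of colour varies, for ITGBL1 from -0.07 (rabbit 64) to 4.88 (rabbit 59). Among the leukocyte genes rabbit 59 is the darkest column.

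**Figure D2:**
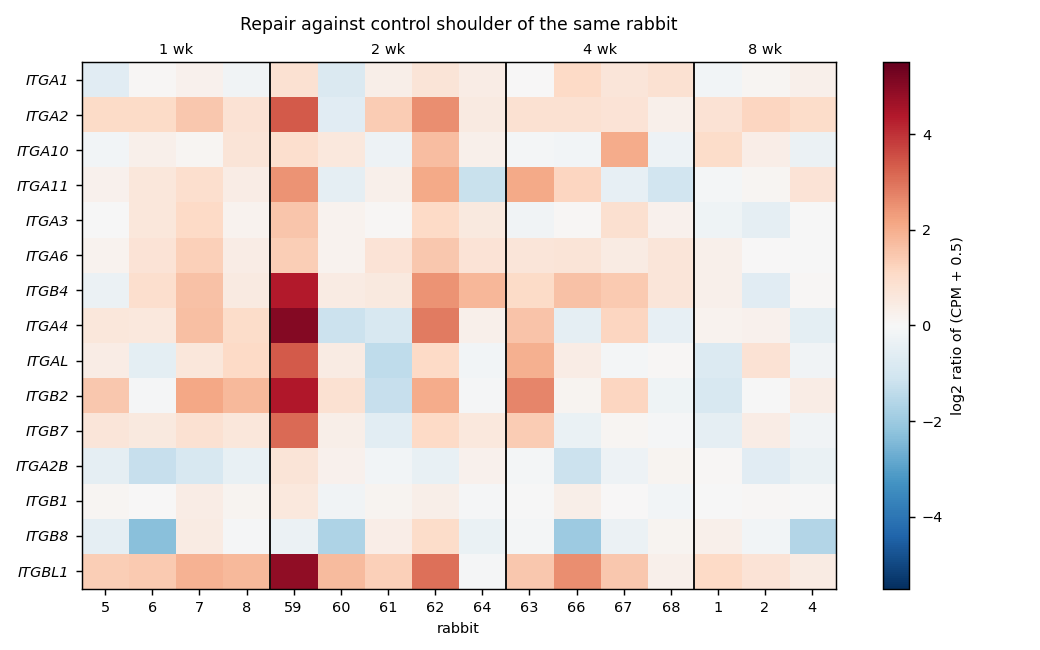
Log2 ratio of repair over control CPM, with 0.5 CPM added to both, for each of the 16 rabbits with both shoulders (x axis, grouped by weeks post-repair) and each member (y axis); red is higher in the repaired shoulder. ITGA6, ITGA2 and ITGBL1 are red in 15 of 16 rabbits, and rabbit 59 reaches 5.05 for ITGA4.

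ITGA6 (ENSOCUG00000000403), the alpha subunit of laminin receptors with ITGB1 or ITGB4, had the smallest adjusted p of the members for the mean effect. At 1 week it measured 20.7, 15.2, 13.5 and 14.1 CPM in the controls and 23.6, 25.8, 34.2 and 18.9 CPM after repair. At 2 weeks the controls were at 27.9, 16.1, 16.9, 13.7 and 14.4 CPM and the repair libraries at 72.4, 18.5, 29.1, 38.8 and 24.9 CPM. Both pairs of groups overlapped, but each of these 9 rabbits was higher on the repaired side. At 4 weeks ITGA6 was at 20.4, 19.9, 21.7 and 20.4 CPM in the controls and at 32.97, 32.5, 29.7 and 32.3 CPM after repair. The groups stood apart there with little spread, 20.6 ± 0.807 CPM (SD, n = 4) against 31.9 ± 1.49 CPM (SD, n = 4). At 8 weeks the controls were at 24.6, 26.5, 26.0 and 21.6 CPM and the repair libraries at 29.6, 27.2 and 21.3 CPM, which overlapped.

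From 1 to 8 weeks the log2FC of ITGA6 was 0.68 (SE 0.26, adjusted p = 0.073), 0.94 (SE 0.25, adjusted p = 0.0179), 0.63 (SE 0.27, adjusted p = 0.259) and 0.06 (SE 0.28, adjusted p = 0.999). Averaged over the 4 times it was 0.58 (SE 0.13, adjusted p = 0.00164). With the rabbit as a block ITGA6 also passed at 1 week, with a log2FC of 0.69 and an adjusted p of 0.0146. Of 12 alternatives other than single libraries left out, 5 called ITGA6 at 1 week. These were the block, the estimated correlation, sample quality weights, and the libraries of that time or of its title series alone. With a library left out ITGA6 was called at 1 week in 0 of 8 fits. The call at 2 weeks was lost without the repair library of rabbit 59 (log2FC 0.66, adjusted p = 0.0653) and held without both libraries of that rabbit (0.83, adjusted p = 0.0369). The mean effect held without that library (0.51, adjusted p = 0.000349).

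ITGB4 (ENSOCUG00000014951) is the beta subunit that pairs with ITGA6 in epithelial hemidesmosomes. At 1 week it measured 8.76, 9.09, 5.24 and 6.93 CPM in the controls and 6.94, 17.5, 16.8 and 9.94 CPM after repair. Controls of 2 weeks were at 1.35, 4.25, 5.34, 2.16 and 2.40 CPM and the repair libraries at 37.6, 6.06, 7.87, 14.2 and 9.86 CPM. The groups overlapped at 1 week and did not at 2 weeks, where rabbit 59 held the lowest control and the highest repair value. At 4 weeks ITGB4 was at 4.92, 2.24, 5.59 and 4.28 CPM in the controls and at 10.9, 7.97, 15.9 and 7.14 CPM after repair, again without overlap. Controls of 8 weeks were at 5.32, 6.17, 9.53 and 11.4 CPM and the repair libraries at 6.47, 3.81 and 12.1 CPM, which overlapped.

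ITGB4 rose at 2 weeks with a log2FC of 2.17 (SE 0.57, adjusted p = 0.0175), and for the mean effect with 1.01 (SE 0.26, adjusted p = 0.00371). At 4 weeks the log2FC was 1.303 (SE 0.59, adjusted p = 0.277). At 1 week it was 0.76 (SE 0.41, adjusted p = 0.195) and at 8 weeks -0.19 (SE 0.49, adjusted p = 0.999). Without the repair library of rabbit 59 the value at 2 weeks was 1.72 (adjusted p = 0.0551) and that of the mean 0.90 (adjusted p = 0.00193). By title series, the mean effect of ITGB4 was 1.74 (SE 0.41, adjusted p = 0.00455) over 2 and 4 weeks and 0.29 (SE 0.32, adjusted p = 0.587) over 1 and 8 weeks, a difference that was not tested. ITGB4 was the only member whose groups did not overlap at 2 weeks, which 4.1% of all genes did with repair higher.

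ITGA3 (ENSOCUG00000009990), another alpha subunit of laminin receptors, was at 4.13, 3.88, 2.32 and 4.00 CPM in the controls of 1 week and at 4.09, 6.15, 5.47 and 4.67 CPM after repair. By 2 weeks the controls were at 3.53, 3.52, 3.11, 2.26 and 2.83 CPM and the repair libraries at 11.2, 4.04, 3.31, 5.34 and 4.31 CPM. Groups overlapped at both times, although each of the 5 rabbits of 2 weeks was higher on the repaired side. At 4 weeks ITGA3 was at 4.04, 3.92, 2.59 and 4.28 CPM in the controls and at 3.49, 4.15, 5.24 and 5.18 CPM after repair. By 8 weeks the controls were at 4.07, 4.96, 3.89 and 5.90 CPM and the repair libraries at 3.36, 3.38 and 5.74 CPM, with each of the 3 rabbits lower on the repaired side. ITGA3 was called for the mean effect alone (log2FC 0.39, SE 0.15, adjusted p = 0.0375), and at 2 weeks its log2FC was 0.82 (SE 0.30, adjusted p = 0.0592). The call of the mean effect was lost without any 1 of 10 libraries (repair of rabbits 4, 6, 7, 67 and 68, control of 1, 3, 7, 62 and 67), with a log2FC of 0.32 to 0.38 and an adjusted p of 0.0503 to 0.109. Under the rabbit block ITGA3 also passed at 2 weeks, with a log2FC of 0.87 and an adjusted p of 0.023, but not without both libraries of rabbit 59 (0.54, adjusted p = 0.223), when the mean effect also missed the threshold (0.295, adjusted p = 0.0666). Unblocked and without the repair library of rabbit 59, the value at 2 weeks was 0.49 (adjusted p = 0.259). With sample quality weights the mean effect of ITGA3 was 0.22 (adjusted p = 0.133).

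The ligands of this group are laminins, and the basement membrane genes listed with them (9 genes: laminin chains, nidogens, perlecan and chains of type IV collagen) had 5 higher and 0 lower at 1 week and again at 2 weeks, where 13.7% and 15.9% of all genes were called. Without the repair library of rabbit 59 the count at 2 weeks was 1, when 2.62% of all genes were called, and without both libraries of that rabbit 0 (0.888%). Limma-voom called 0 at 4 weeks (5 higher at an unadjusted p under 0.05) and 0 at 8 weeks (0 unadjusted). For the mean effect 7 of the 9 rose (7 and 8 without that library and without both), beside 40.1% of all genes called. Their median log2FC was 1.03 at 1 week and 1.08 at 2 weeks. COL4A1, the main type IV collagen chain, was at 146 ± 21.8 CPM (SD, n = 4) in the controls of 1 week and at 380 ± 78.5 CPM (SD, n = 4) after repair, a log2FC of 1.35 (SE 0.42, adjusted p = 0.0356). LAMA3, the alpha chain of laminin-332, rose by a log2FC of 1.41 (SE 0.35, adjusted p = 0.0126) at 1 week and 2.08 (SE 0.45, adjusted p = 0.00847) at 2 weeks. Ranked over 33 libraries among 2734 genes with a symbol, the genes whose log2 CPM was most like that of ITGA6 were COL4A1 (r = 0.904), DLC1 (0.873), CLIC1 (0.840), LAMB1 (0.837) and FMNL3 (0.837). These libraries share treatment, depth and title series, so the r values are descriptions. Endothelial markers, 7 genes such as CDH5 and TEK, summed to 241 to 311 CPM in the controls of 1 week and 292 to 388 CPM after repair, and to 170 to 191 and 152 to 739 CPM at 2 weeks, with rabbit 59 at the top. VWF, also counted among the other ligands below, had the largest part in these sums (median 136 CPM over the libraries, the next CDH5 at 36.2 CPM). Of the 7, limma-voom called 0 at 1 week (0 at an unadjusted p under 0.05) and 3, all higher, at 2 weeks (0 without the repair library of rabbit 59). Their part in the values of ITGA6 and ITGB4 was not tested.

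**Figure D3:**
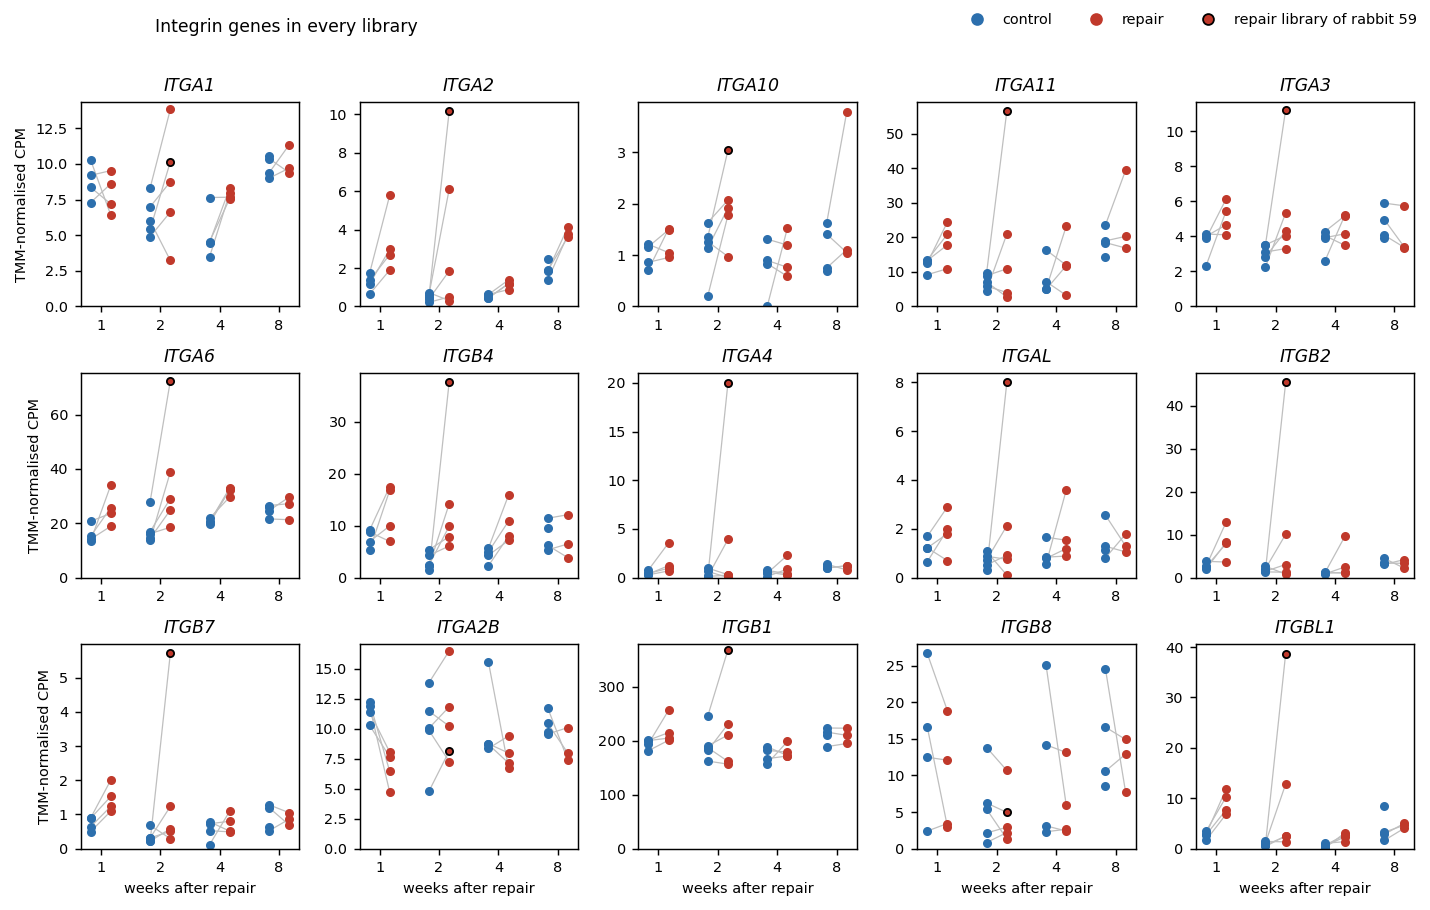
TMM-normalised CPM (y axis, from 0, its own scale in each panel) of the 15 members in every library by weeks post-repair (x axis); blue is control, red repair, and grey lines join both shoulders of a rabbit. The repair library of rabbit 59 (black rim) is the highest of its group for all members but ITGA1, ITGA2B and ITGB8. The groups of ITGA6 at 4 weeks do not overlap.

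Among the collagen-binding subunits ITGA2 (ENSOCUG00000011387), which pairs with ITGB1 in a receptor for fibrillar collagen, was the 1 called. At 1 week it measured 0.641, 1.16, 1.72 and 1.36 CPM in the controls and 1.90, 2.98, 5.79 and 2.70 CPM after repair. At 2 weeks the controls were at 0.519, 0.725, 0.388, 0.616 and 0.218 CPM and the repair libraries at 10.2, 0.303, 1.85, 6.09 and 0.497 CPM. The groups did not overlap at 1 week, and at 2 weeks they overlapped because of rabbits 60 and 64. At 4 weeks ITGA2 was at 0.437, 0.449, 0.621 and 0.626 CPM in the controls and at 1.195, 1.19, 1.38 and 0.880 CPM after repair. At 8 weeks the controls were at 1.88, 1.39, 2.45 and 1.84 CPM and the repair libraries at 3.62, 3.75 and 4.15 CPM. Neither pair overlapped, so ITGA2 was higher without overlap at 1, 4 and 8 weeks, and at 8 weeks it was the only member to be so. No overlap with repair higher was seen for 3 of 15 members at 1 week (16.1% of all genes), 4 at 4 weeks (5.19%) and 1 at 8 weeks (4.24%).

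For the mean effect ITGA2 rose by a log2FC of 1.39 (SE 0.37, adjusted p = 0.00471). At the single times it was 1.36 (SE 0.56, adjusted p = 0.0943), 2.10 (SE 0.81, adjusted p = 0.0707), 1.05 (SE 0.96, adjusted p = 0.602) and 1.05 (SE 0.53, adjusted p = 0.999) from 1 to 8 weeks. With the rabbit as a block it passed at 1 week (log2FC 1.46, SE 0.34, adjusted p = 0.00687) and at 2 weeks (2.64, SE 0.49, adjusted p = 0.00285), the latter also without both libraries of rabbit 59 (1.99, adjusted p = 0.0315). With the estimated correlation the call at 1 week was lost (1.37, adjusted p = 0.0546), and unblocked without the repair library of rabbit 59 the value at 2 weeks was 1.4 (adjusted p = 0.245). The mean effect was kept without the repair library of rabbit 59 (1.22, adjusted p = 0.00235).

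ITGA1, the other widely expressed collagen receptor subunit, lay between 3.48 and 10.5 CPM in the controls and between 3.23 and 13.8 CPM after repair. At 4 weeks its controls were at 7.64, 3.48, 4.56 and 4.49 CPM and the repair libraries at 7.67, 7.97, 7.56 and 8.31 CPM, overlapping through the control of rabbit 63 alone. Its log2FC there was 0.69 (SE 0.31, unadjusted p = 0.0326, adjusted p = 0.273). ITGA10 is the cartilage-type collagen receptor subunit and ITGA11 the one typical of fibroblasts. Neither was called in any comparison of the limma-voom fit described above. With a library left out, the mean effect of ITGA10 was called in 9 of 33 fits (adjusted p 0.0329 to 0.148). Between the controls of 2 and 4 weeks and those of 1 and 8 weeks, ITGA11 was called with sample quality weights and without both libraries of rabbit 59. ITGA11 lay between 4.62 and 23.5 CPM in the controls and between 2.73 and 56.5 CPM after repair, with its highest value in rabbit 59. Its mean log2FC was 0.53 (SE 0.30, adjusted p = 0.156), and with the rabbit as a block 0.64 (SE 0.24, adjusted p = 0.0366). That call was lost with the estimated correlation (adjusted p = 0.118) and in the block without both libraries of rabbit 59 (0.48, adjusted p = 0.0886). ITGA10 never exceeded 3.79 CPM and had no count in 1 control library of 4 weeks, and its mean log2FC was 0.71 (SE 0.30, adjusted p = 0.0554), called with the estimated correlation (0.71, adjusted p = 0.037) and not with the block (0.54, adjusted p = 0.108).

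Of 9 collagen genes listed as ligands, 1 was higher at 1 week (COL23A1), 5 at 2 weeks and 9 for the mean effect, with 0 lower, against 13.7%, 15.9% and 40.1% of all genes called. Without the repair library of rabbit 59 the count at 2 weeks was 0 and that of the mean effect 9. Limma-voom called 0 at 4 weeks (4 higher at an unadjusted p under 0.05) and 0 at 8 weeks (1). COL1A1, the main chain of type I collagen, was at 68.3 ± 25.8 CPM (SD, n = 5) in the controls of 2 weeks and at 3606 ± 6237 CPM (SD, n = 5) after repair, an SD larger than the mean (log2FC 2.80, SE 0.88, adjusted p = 0.0331). As fibroblast markers, 6 genes with COL1A1 among them summed to 1111 to 1449 CPM in the controls of 1 week and to 3825 to 13720 CPM after repair. At 2 weeks the same sum spanned 630 to 1069 CPM and 534 to 40460 CPM, with rabbit 59 at the top. Of the 6, limma-voom called 0 at 1 week (3 higher at an unadjusted p under 0.05), 3 at 2 weeks (0 without the repair library of rabbit 59) and 6 for the mean effect. Their part in the values of ITGA2 and ITGA11 was not tested.

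ITGBL1 (ENSOCUG00000008813), the secreted relative of the beta subunits, had the highest log2FC of the called members at each time with calls. At 1 week it was at 2.71, 3.44, 2.81 and 1.64 CPM in the controls and at 7.73, 10.3, 11.9 and 6.87 CPM after repair, with no overlap. Controls of 2 weeks were at 0.831, 0.414, 0.680, 1.13 and 1.42 CPM and the repair libraries at 38.7, 2.53, 2.43, 12.8 and 1.32 CPM, where the lowest repair value, of rabbit 64, lay below its own control. At 4 weeks the controls were at 0.655, 0.112, 0.518 and 1.04 CPM and the repair libraries at 2.69, 3.13, 2.33 and 1.37 CPM. The 4-week groups stood apart. Controls of 8 weeks were at 1.62, 2.83, 8.41 and 3.25 CPM and the repair libraries at 4.05, 5.04 and 4.64 CPM, overlapping through the control of rabbit 3.

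Fitted log2FC of ITGBL1 from 1 to 8 weeks were 1.78 (SE 0.60, adjusted p = 0.0474), 2.82 (SE 0.96, adjusted p = 0.0452), 2.15 (SE 1.31, adjusted p = 0.415) and 0.46 (SE 0.67, adjusted p = 0.999). Its mean effect was 1.80 (SE 0.46, adjusted p = 0.00382). Both calls at single times lay close to the threshold. At 1 week the call held in 1 of 8 fits that left out a library, that without the repair library of rabbit 8, and was lost in 7 (log2FC 1.61 to 1.91, adjusted p 0.0502 to 0.121). At 2 weeks it held in 3 of 10, those without the repair library of rabbit 60, 61 or 64, and was lost in 7 (2.01 to 3.002, adjusted p 0.0756 to 0.103). The mean effect held in 33 of 33. Without the repair library of rabbit 59 the value at 2 weeks was 2.01 (adjusted p = 0.103).

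The leukocyte integrins are ITGB2, the beta subunit shared by the receptors of myeloid cells and lymphocytes, its partner ITGAL, and ITGA4 and ITGB7, which together form a homing receptor of lymphocytes. Only ITGB7 (ENSOCUG00000001426) was called, and for the mean effect alone. At 1 week it measured 0.499, 0.887, 0.898 and 0.643 CPM in the controls and 1.10, 1.53, 2.01 and 1.24 CPM after repair. By 2 weeks the controls were at 0.208, 0.311, 0.680, 0.308 and 0.218 CPM and the repair libraries at 5.71, 0.505, 0.292, 1.23 and 0.580 CPM. The groups did not overlap at 1 week and did at 2 weeks. At 4 weeks ITGB7 was at 0.109, 0.785, 0.725 and 0.522 CPM in the controls and at 1.10, 0.508, 0.800 and 0.489 CPM after repair. By 8 weeks the controls were at 1.2, 0.519, 0.639 and 1.28 CPM and the repair libraries at 0.690, 0.860 and 1.05 CPM. Both pairs overlapped. The mean log2FC of ITGB7 was 0.77 (SE 0.30, adjusted p = 0.0432), a call kept in 16 of 33 fits with a library left out and lost without both libraries of rabbit 59 (0.55, adjusted p = 0.0613). In the 17 fits that lost it (repair libraries of rabbits 2, 4, 6, 7, 62, 63 and 67, control libraries of 2, 3, 5, 8, 59, 60, 62, 63, 64 and 68) the log2FC was 0.64 to 0.79 and the adjusted p 0.0507 to 0.0861. With the rabbit as a block ITGB7 also passed at 2 weeks (1.90, SE 0.63, adjusted p = 0.0323), a call lost with the estimated correlation (adjusted p = 0.0575) and in the block without both libraries of rabbit 59 (0.72, adjusted p = 0.43). That last fit also lost its mean effect (0.48, adjusted p = 0.113).

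ITGB2 was at 2.49, 3.77, 2.62 and 2.00 CPM in the controls of 1 week and at 7.93, 3.60, 12.96 and 8.195 CPM after repair, where rabbit 6 alone did not exceed its control. At 2 weeks the controls were at 1.66, 1.45, 2.62, 2.05 and 1.31 CPM and the repair libraries at 45.4, 3.03, 0.778, 10.1 and 1.24 CPM. The repair libraries of 2 weeks thus reached both above and below all controls. The log2FC of ITGB2 was 1.45 (SE 0.66, adjusted p = 0.127) at 1 week and 1.496 (SE 0.88, adjusted p = 0.218) at 2 weeks. With the rabbit as a block it passed at both times, at 1.58 (SE 0.55, adjusted p = 0.0427) and 2.54 (SE 0.68, adjusted p = 0.012), and for the mean effect (1.40, SE 0.38, adjusted p = 0.00664). With the estimated correlation all 3 calls were lost (adjusted p = 0.0856, 0.18 and 0.0646). In the block without both libraries of rabbit 59 the value at 2 weeks was 1.02 (adjusted p = 0.311) and the mean effect was kept (1.04, adjusted p = 0.0109). Without the repair library of rabbit 59 the unblocked value at 2 weeks was 0.52 (adjusted p = 0.687).

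ITGA4 had a like spread: its 5 repair libraries of 2 weeks were at 20.04, 0, 0.292, 3.92 and 0.249 CPM and the controls at 0.122, 0.621, 0.971, 0.103 and 0.109 CPM. Its log2FC there was 1.76 (SE 1.198, adjusted p = 0.288), and 3.31 (SE 1.06, adjusted p = 0.0271) with the rabbit as a block, which also called its mean effect (1.46, SE 0.52, adjusted p = 0.0303). Both calls were lost with the estimated correlation (1.72, adjusted p = 0.25, and 0.96, adjusted p = 0.137) and in the block without both libraries of rabbit 59 (1.05, adjusted p = 0.53, and 0.91, adjusted p = 0.0887). Unblocked and without the repair library of rabbit 59, its values were 0.45 (adjusted p = 0.837) at 2 weeks and 0.63 (adjusted p = 0.243) for the mean effect. ITGAL spanned 0.312 to 2.56 CPM in the controls and 0.0972 to 8.00 CPM after repair, and was called in no comparison by limma-voom.

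The 4 leukocyte integrins summed to 3.64 to 6.15 CPM in the controls of 1 week and to 6.50 to 21.4 CPM after repair, to 2.30 to 5.34 and 1.46 to 79.2 CPM at 2 weeks, to 2.18 to 3.34 and 2.74 to 16.6 CPM at 4 weeks, and to 5.64 to 9.18 and 5.35 to 7.17 CPM at 8 weeks. A list of 13 leukocyte markers (such as CD53, LCP1, CSF1R and CD163) summed to 33.7 to 56.1 CPM in controls and 58.5 to 168 CPM in repair libraries at 1 week, to 19.5 to 30.3 and 16.7 to 621 CPM at 2 weeks, to 14.7 to 31.1 and 13.7 to 84.3 CPM at 4 weeks, and to 45.02 to 85.5 and 60.7 to 118 CPM at 8 weeks. Both sums had their highest value in the repair library of rabbit 59. Of the 13 markers limma-voom called 0 at 1, 4 and 8 weeks (4, 1 and 0 higher at an unadjusted p under 0.05), 1 at 2 weeks (NCKAP1L, higher; 0 without the repair library of rabbit 59) and 3 for the mean effect. CD163, C1QB and IL10RA were at 0 in 1, 2 and 3 libraries, and the other 10 markers were above 0 in all 33. The part of leukocyte number in these values was not tested.

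**Figure D4:**
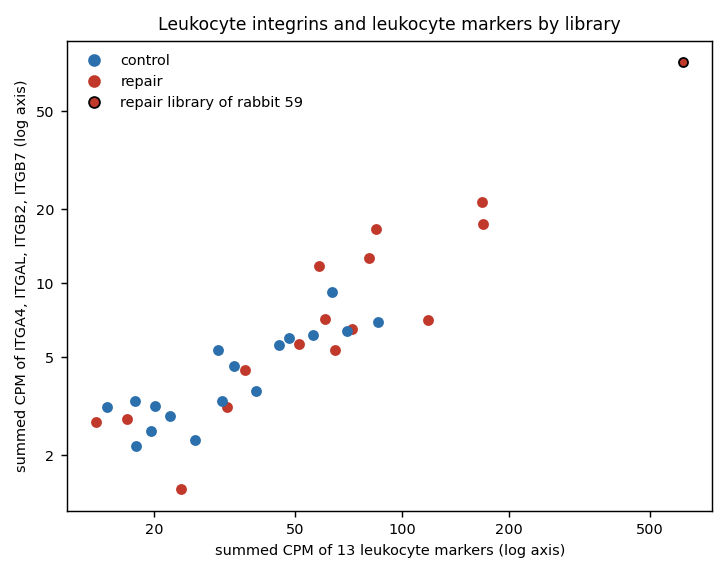
Summed CPM of the leukocyte integrins ITGA4, ITGAL, ITGB2 and ITGB7 (y axis, log scale) against the summed CPM of 13 leukocyte markers (x axis, log scale) in each of 33 libraries; blue is control, red repair. The repair library of rabbit 59 lies alone at 621 and 79.2 CPM.

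ITGA2B (ENSOCUG00000003273), the alpha subunit of the platelet fibrinogen receptor, was the 1 member that fell. At 1 week it measured 11.4, 11.9, 12.2 and 10.3 CPM in the controls and 8.03, 4.70, 6.43 and 7.65 CPM after repair. The groups did not overlap, with repair lower, which 13.3% of all genes also showed. Controls of 2 weeks were at 4.78, 10.04, 11.5, 9.86 and 13.8 CPM and the repair libraries at 8.12, 11.8, 10.2, 7.26 and 16.5 CPM. At 4 weeks ITGA2B was at 8.74, 15.6, 8.70 and 8.35 CPM in the controls and at 7.97, 6.69, 7.13 and 9.39 CPM after repair. At 8 weeks the controls were at 9.55, 11.7, 9.69 and 10.4 CPM and the repair libraries at 10.1, 7.37 and 7.94 CPM. These 3 pairs of groups overlapped.

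ITGA2B had a log2FC of -0.82 (SE 0.23, adjusted p = 0.0199) at 1 week and of -0.35 (SE 0.12, adjusted p = 0.0252) for the mean effect. At 2, 4 and 8 weeks it was 0.10 (SE 0.23), -0.37 (SE 0.27) and -0.31 (SE 0.25), none of them called. The call at 1 week was lost without the repair library of rabbit 6 (-0.65, adjusted p = 0.0776), the repair library of rabbit 7 (-0.82, adjusted p = 0.0525) or the control library of rabbit 7 (-0.79, adjusted p = 0.0644). That of the mean effect was lost without the control library of rabbit 66 at 4 weeks (-0.30, adjusted p = 0.052). No other platelet marker had a symbol here. Of the 8 muscle fibre markers 2 were called lower at 1 week and 3 at 2 weeks (0 without the repair library of rabbit 59), and their sum spanned 53450 to 67210 CPM in the controls of 1 week and 10910 to 56280 CPM in the repair libraries, with overlap. The genes most like ITGA2B over the 33 libraries were ENO3 (r = 0.784), FES (0.780), RRP36 (0.758), YIF1B (0.756) and ATP2A1 (0.744), of which ENO3 and ATP2A1 code for the muscle enolase and the calcium pump of fast fibres. The part of fibre content in the values of ITGA2B was not tested.

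ITGB1, the beta subunit that pairs with most of the alpha subunits above, was called in no comparison. It was at 194 ± 9.06 CPM (SD, n = 4) in the controls and 219 ± 25.4 CPM (SD, n = 4) after repair at 1 week, 194 ± 31.2 and 226 ± 86.1 CPM (SD, n = 5) at 2 weeks, 174 ± 14.4 and 180.3 ± 12.6 CPM (SD, n = 4) at 4 weeks, and 209.8 ± 14.9 (SD, n = 4) and 209 ± 14.2 CPM (SD, n = 3) at 8 weeks. Its mean log2FC was 0.09 (SE 0.09, adjusted p = 0.404), and its highest value of 369 CPM was that of the repair library of rabbit 59. ITGB8 varied widely between rabbits, with controls from 0.822 to 26.7 CPM and repair libraries from 1.31 to 18.9 CPM. Its mean log2FC was -0.40 (SE 0.43, adjusted p = 0.459).

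Other ligands and partners of integrins were read from fixed lists. Of 16 other ligands, such as fibronectin and thrombospondins, 2 were higher at 1 week, 7 at 2 weeks and 10 for the mean effect. There were 0 lower, beside 13.7%, 15.9% and 40.1% of all genes called in the same comparisons. Without the repair library of rabbit 59 the counts were 1 at 2 weeks, when 2.62% of all genes were called, and 12 for the mean effect. Limma-voom called 0 at 4 and 8 weeks, with 2 and 1 higher at an unadjusted p under 0.05. SVEP1, a large matrix protein that binds integrins, was at 11.5 ± 3.29 CPM (SD, n = 5) in the controls of 2 weeks and at 111 ± 106 CPM (SD, n = 5) after repair (log2FC 2.58, SE 0.59, adjusted p = 0.00996). LTBP1, which stores latent TGF-beta in the matrix, rose by a log2FC of 1.91 (SE 0.48, adjusted p = 0.0134) at 1 week and 1.29 (SE 0.44, adjusted p = 0.0445) at 2 weeks.

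Of 23 cytoplasmic partners, 2 were higher and 1 lower at 1 week, 9 and 1 at 2 weeks, and 14 and 2 for the mean effect, beside the same 13.7%, 15.9% and 40.1% of all genes. The count at 2 weeks was 0 without the repair library of rabbit 59, and that of the mean effect was again 14 and 2. Limma-voom called 0 at 4 weeks (1 higher and 1 lower at an unadjusted p under 0.05) and 0 at 8 weeks (0 unadjusted). The focal adhesion kinase PTK2 rose at 2 weeks by a log2FC of 0.39 (SE 0.11, adjusted p = 0.0209), vinculin (VCL) by 0.44 (SE 0.13, adjusted p = 0.0286) and filamin A (FLNA) by 1.196 (SE 0.35, adjusted p = 0.025). RAPGEF1, the exchange factor that activates the integrin regulator RAP1, fell at 1 week by 0.52 (SE 0.15, adjusted p = 0.0297) and at 2 weeks by 0.42 (SE 0.13, adjusted p = 0.0333) on the log2 scale. The medians of this list were 0.29 at 1 week and 0.62 at 2 weeks.

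Control muscle itself differed between the title series. ITGA1 was the 1 member called between the controls of 2 and 4 weeks and those of 1 and 8 weeks (log2FC -0.73, SE 0.19, adjusted p = 0.00947), against 15.5% of all genes, 7.87% in that direction. All 15 members had a fitted value below 0 in this comparison, where 46.9% of all genes lay above 0, with a median log2FC of -0.95 beside -0.03 over all genes. Within the series of 1 and 8 weeks 1 member was called for the mean repair effect (ITGA2B, lower; 6.84% of all genes called, 3.16% lower), and within that of 2 and 4 weeks 3 were (ITGA6, ITGB4 and ITGBL1, higher; 25.9%, 14.1% higher). ITGA2, ITGA3 and ITGB7 were thus called in the mean over both series and in the mean of neither series alone. In a fit of the libraries of 1 and 8 weeks alone, ITGA2 and ITGB7 were called at 1 week.

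**Figure D5:**
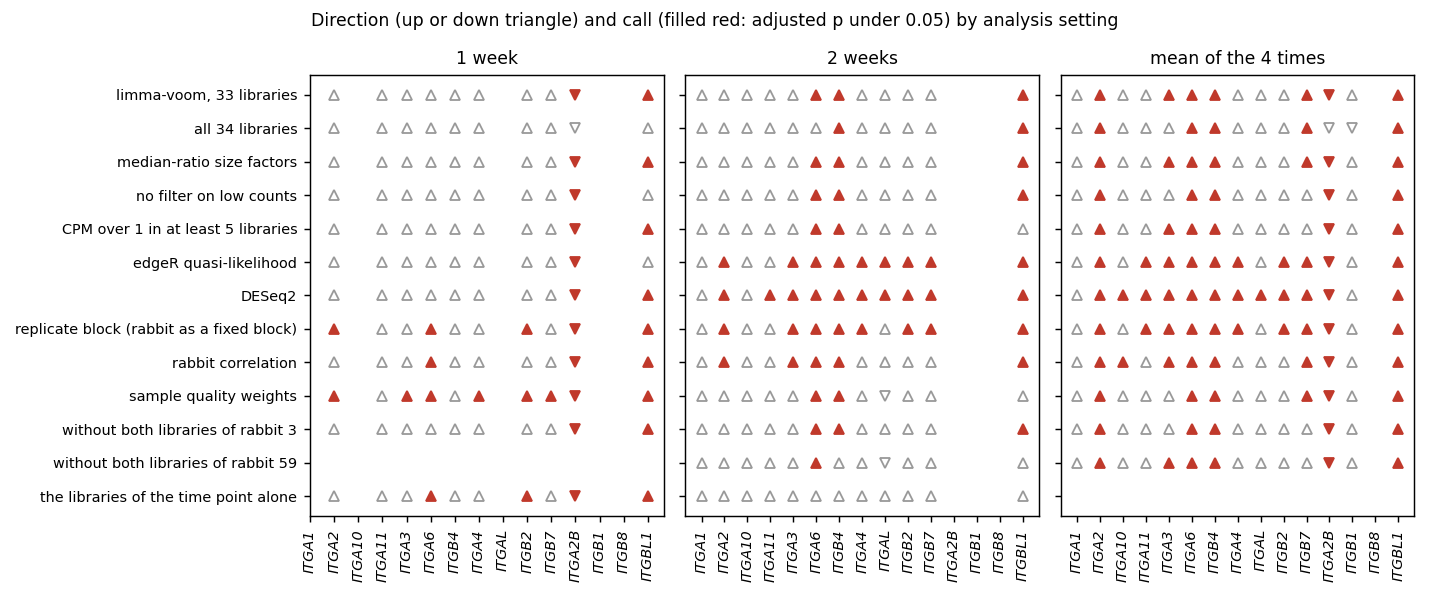
Direction of the fitted log2FC (triangle up or down) and call (filled red, adjusted p under 0.05) of each member (x axis) under each analysis setting (y axis), at 1 week, at 2 weeks and for the mean of the 4 times. Members whose log2FC was within 1 SE of 0 in the limma-voom fit have no symbols; at 2 weeks red symbols number from 0 with the libraries of that time alone to 10 with DESeq2.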

How the data were processed

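Expected counts per gene (RSEM) were deposited by the authors, who per the study's methods aligned the stranded single-end reads with STAR to OryCun2.0 and counted with RSEM on the Ensembl annotation. They were not scaled before deposit. Whether RSEM used the strand is not given in the sources used here. In the RefSeq annotation of another assembly, used for names only, ITGA4 overlaps CERKL, ITGA1 overlaps PELO and ITGA11 overlaps CALML4, so reads there may be shared. No coordinates are printed, since no annotation of the files' build was used.

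After the study's methods, TMM factors were computed on genes with CPM over 1 in at least 1 of 33 libraries, and limma-voom estimated a mean per group (8 groups of treatment and time). Versions were R 4.3.3, edgeR 4.0.16 and limma 3.58.1. The repair library of rabbit 3 was left out. p-values were adjusted by Benjamini-Hochberg over all 12937 genes. The time code of the labels was taken to give the weeks of tenotomy and then those post-repair, and rabbit numbers come from the sample titles. Both shoulders of a rabbit share its number: deviations from group means of both libraries of a rabbit correlated at 0.0252 to 0.434 (median 0.257) in 16 rabbits. No library duplicated another (highest r 0.987). Total counts were 9220035 to 28395188 per library, and the replicates are rabbits.

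Alternatives were size factors by median ratio, the full set of 34 libraries, CPM over 1 in at least 5 libraries or no filter, edgeR quasi-likelihood and DESeq2 1.42.0 on counts rounded to whole numbers, the rabbit as a fixed block or as an estimated correlation (0.174), sample quality weights, the libraries of 1 time point alone, and each library left out. Those without both libraries of rabbit 3 or 59 (the latter also with the block), the list counts without rabbit 59, those with 1 title series alone, the means over 1 series and the difference between 2 and 8 weeks were added after seeing the data. The fit was tested on simulated counts. Members and gene lists were chosen with earlier results of these data known. All 15 members are described; those called at a time or for the mean effect are given in every library, the others by range unless a result turns on them. The 3 additional genes given library by library (ITGA1 at 4 weeks, ITGB2 and ITGA4) were chosen after their values were seen. The examples from the ligand, partner and marker lists were also chosen after their values were seen.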

Additional observations from a re-analysis of the deposited data

Results flagged for a closer look

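Of 105 groups of 4 or 5 libraries examined, 1 for each member and group, 10 held a library far from the others. Distance was the gap to the next value over the range of the group. A rate of 1 in 20 groups would give 5.25. The groups are not independent, as all members share the same libraries, so 10 beside 5.25 does not show an excess over chance. The repair library of rabbit 59 at 2 weeks made 6 of them, being the highest of 5 for ITGA3 (11.2 CPM, the next 5.34), ITGB4 (37.6, the next 14.2), ITGA4 (20.04, the next 3.92), ITGAL (8.00, the next 2.12), ITGB2 (45.4, the next 10.1) and ITGB7 (5.71, the next 1.23). The same library held 621 CPM over 13 leukocyte markers and 12300 CPM over 8 muscle fibre markers.

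The control library of rabbit 59 was the highest of its group for ITGA6 (27.9 CPM, the next 16.9). The remaining groups with a distant control library were those of rabbit 7 at 1 week, lowest for ITGA3 (2.32 CPM, the next 3.88), of rabbit 61 at 2 weeks, highest for ITGB7 (0.680 CPM, the next 0.311), and of rabbit 66 at 4 weeks, highest for ITGA2B (15.6 CPM, the next 8.74).

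ITGA3 moved in opposite directions in all rabbits of 2 times: each of 5 rabbits was higher on the repaired side at 2 weeks and each of 3 lower at 8 weeks, with a difference of the mean paired log2 ratios (8 minus 2 weeks) of -0.771 on the scale of log2(CPM + 0.5). In limma-voom the same difference was -0.98 (SE 0.42, unadjusted p = 0.0259, adjusted p = 0.558), so it did not pass over all genes, and these times belong to different title series.

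The repair library of rabbit 3 at 8 weeks was used only in the alternative with all 34 libraries. In CPM without TMM scaling it lay above all 4 controls of that time for ITGA3 (12.4 CPM, the highest control 5.86). The same held for ITGB4 (15.4 against 11.3), ITGB2 (7.195 against 3.98), ITGB7 (1.60 against 1.27) and ITGA2B (23.4 against 10.3). In that library 46 of 6970 genes well expressed in the other libraries of 8 weeks had no count.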

How the results depend on the processing

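Counts of members called are given with the share of all genes called in the same fit. At 1 week (2 members, 13.7% in limma-voom) they were 0 with all 34 libraries (2.25%), 1 with no filter (9%) and with edgeR (12.1%), 5 with the replicate block (rabbit as a fixed block; 26.3%), 8 with sample quality weights (32.3%), 4 with the libraries of that time alone (24.4%), 6 with those of its title series alone (31.2%), 7 without both libraries of rabbit 59 (29.1%), and 0 to 2 with a library of that time left out (0 without the repair library of rabbit 6 or 7 or the control library of rabbit 7). At 2 weeks (3, 15.9%) the count was 9 with edgeR (28.7%), 10 with DESeq2 (31.2%), 8 with the block (31.6%), 5 with the rabbit correlation (25.2%), 1 without both libraries of rabbit 59 (0.888%), 0 with the libraries of that time alone (0.0396%) or of its title series alone (0.969%), and 0 to 7 with a library left out (0 without the repair library of rabbit 59, 2.62%; 7 without that of rabbit 60, 25.7%). For the mean effect (7, 40.1%) it was 12 with DESeq2 (45.6%), 1 within the series of 1 and 8 weeks (6.84%), 3 within that of 2 and 4 weeks (25.9%), and 5 to 9 with a library left out. Between controls (1, 15.5%) it was 0 with all 34 libraries (3.28%), 4 with no filter (26.5%), with edgeR (17.3%) and with DESeq2 (20.5%), 7 with quality weights (31%), 5 without both libraries of rabbit 59 (20.3%), and 1 to 3 with a library left out. At 8 weeks and for the differences 8 minus 1 and 4 minus 2 weeks it stayed at 0 in every setting run. At 4 weeks it was 1 in the block without both libraries of rabbit 59 (8.58%) and 0 in every other setting run. The cause was not tested. With all 33 libraries the block changed no call of a member other than those given in the report.

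Values changed sign for ITGA1 in the mean of 1 and 8 weeks alone (-0.031), ITGA10 at 4 weeks with a library left out (-0.042 to 1.55, the lowest without the control library of rabbit 67), ITGAL at 2 weeks with quality weights (-0.54) and without both libraries of rabbit 59 (-0.13), ITGA2B at 8 weeks with all 34 libraries (0.13) and ITGB1 for the mean effect with all 34 libraries (-0.19). None of these was called. With 3 to 5 libraries a group and several members under 1 CPM, differences of ITGA4, ITGAL, ITGB7 and ITGA10 rest on few counts. The same holds for ITGA2 and ITGBL1 at 2 and 4 weeks. In the controls ITGA2 held 2 to 7 counts at 2 weeks and 4 to 6 at 4 weeks. Controls of 4 weeks held 1 to 10 counts of ITGBL1.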

Other observations

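The level of ITGB8 in the control shoulder ran along with that in the repaired shoulder of the same rabbit (Pearson's r = 0.619 over 16 rabbits, permutation p = 0.0117; Spearman's rho = 0.556, permutation p = 0.0279). The relation did not pass Benjamini-Hochberg adjustment over the 15 members (0.0878 for r and 0.419 for rho). Without the 2 rabbits farthest from the median of the controls r was 0.563, and within the title series it was 0.459 (1 and 8 weeks, 7 rabbits) and 0.714 (2 and 4 weeks, 9 rabbits). ITGB1 had a higher r (0.715, permutation p = 0.00575, adjusted 0.0862; rho 0.45, permutation p = 0.0828, adjusted 0.559), but without 2 rabbits it was 0.0605, so that relation rests on those 2 rabbits.

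Among the members themselves, the pairs with the highest correlation of log2 CPM over the 33 libraries were ITGA2 with ITGBL1 (r = 0.838), ITGB2 with ITGB7 (0.816), ITGA2 with ITGA11 (0.809) and ITGAL with ITGB7 (0.801). The lowest were ITGA2B with ITGB1 (-0.481), with ITGA11 (-0.465) and with ITGA2 (-0.458). These libraries share treatment, title series and rabbits, so the values are descriptions.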
